A study of Mus musculus with 12 samples.

Results

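The integrated stress response and the unfolded protein response were followed through 10 genes in hippocampal slices after chemical long-term potentiation (LTP): Atf3, Atf4, Ddit3, Trib3, Chac1, Ppp1r15a, Ppp1r15b, Xbp1, Hspa5 and Sesn2. These 10 genes were picked by name, with earlier results of these data known, from the 41091 gene IDs of the count tables. Total RNA depleted of ribosomal RNA was sequenced in 12 libraries, 3 for each of 4 groups, namely LTP and control slices at 1 hr and LTP and control slices at 3 hr. The acute slices of all groups came from C57BL/6 wild-type mice, 2 to 3 months old, and the dentate gyrus had been cut away before they recovered in the chamber. The LTP groups were perfused for 5 min with forskolin, a drug that raises cAMP, at 50 uM, and then with forskolin plus 30 mM KCl and 10 mM calcium up to 10 min in total. The control groups received 0.2% DMSO, the vehicle, for 10 min. Slices were frozen 1 hr or 3 hr later. LTP and control slices of a time point came from the same 3 animals, whereas animals were assumed to differ between the times. The whole slice was sampled, so neurons, glia and vessels all contributed, and the treatment bathes every cell type.

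When proteins misfold in the endoplasmic reticulum (ER), or when amino acids are short, kinases phosphorylate the translation factor eIF2, which slows protein synthesis in general while favouring translation of a few mRNAs such as Atf4. ATF4 protein then switches on genes of amino acid supply together with Ddit3, Trib3, Chac1 and Sesn2, and the response is ended by phosphatase complexes that dephosphorylate eIF2. In parallel, the ER sensor IRE1 acts through Xbp1, and the arms of IRE1 and of a further ER sensor, ATF6, raise chaperones such as Hspa5. In neurons, phosphorylation of eIF2 is known as a brake on the protein synthesis that long-lasting plasticity needs, and Atf3 and Ppp1r15a are also known as genes that can respond to cAMP and calcium.

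Promoter sequence was examined because some of these genes are known to be read both by stress factors and by the cAMP pathway that forskolin activates. Windows of 300 bases from RefSeq on GRCm38.p6, running from 250 bases before to 50 after the start in RefSeq, were found for 9 of the 10 genes, all but Ppp1r15b. Both strands were searched for the cAMP response element (CRE, TGACGTCA), the C/EBP-ATF response element (CARE, TGATGNAA), an XBP1 and ATF6 element (UPRE, TGACGTGG) and the ER stress element (ERSE, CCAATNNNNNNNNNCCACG). CRE and UPRE begin with the same letters and cannot match the same bases on the same strand. The CRE was present in Ppp1r15a alone among the 9 genes and in 1.79% of 32851 promoters. The CARE was present in Atf3, Chac1 and Trib3 and in 3.97% of promoters, and the Trib3 match lay after the start in RefSeq but before the 5′ end of the gene in the coordinates given here, since the annotations differ. The ERSE was present in Hspa5 alone among the 9 genes and in 0.119% of promoters. The UPRE was present in 0 of the 9 genes and in 0.676% of promoters. The 4 matches before the RefSeq start are shown 5′ to 3′ on the strand of the gene, with the matching letters in capitals. A match describes the letters in this window and is not evidence of binding. Only the letters given above were searched, so variants of these elements were not counted. The Ppp1r15a stretch is chr7:45526269-45526300 on the minus strand and ends at the base before the start. The Atf3 stretch is chr1:191183416-191183463 on the minus strand, the Chac1 stretch chr2:119351029-119351076 on the plus strand and the Hspa5 stretch chr2:34772020-34772048 on the plus strand. The Hspa5 stretch also falls in an exon of a longer annotated transcript and was therefore kept short. The Atf3 stretch lies inside the annotated gene, before a start downstream of its 5′ end.
Ppp1r15a, CRE: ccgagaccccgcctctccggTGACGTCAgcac
Atf3, CARE on the opposite strand: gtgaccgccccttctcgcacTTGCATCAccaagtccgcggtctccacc
Chac1, CARE on the opposite strand: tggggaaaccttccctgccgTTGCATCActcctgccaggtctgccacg
Hspa5, ERSE: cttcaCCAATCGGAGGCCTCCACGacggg

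Levels are given as CPM, counts relative to the size of the library, scaled by TMM over the 12 libraries, whose totals ran from 37118382 to 50815001 counts. 1 hr control replicate 2, set aside as an outlier in the study's clustering, was left out of all tests but is shown. The summed level of Arc, Fos, Npas4 and Egr2, genes switched on by neuronal activity, was 375 to 544 CPM in 1 hr controls and 1490 to 1600 CPM after LTP, and 496 to 558 CPM against 1320 to 1430 CPM at 3 hr. The study used Arc to choose its slices, so Arc is not an independent check of the labels. The 7 neuronal markers summed to between 6020 and 7690 CPM in every library, as the labelled tissue would have, and no marker of the other cell types was at 0. The dentate granule cell markers were still present, at 117 to 218 CPM in sum.

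Per kilobase of exon, levels in the 3 libraries of 1 hr controls spanned a wide range. Hspa5, the main chaperone of the ER, was highest at 95.9 ± 3.84 CPM per kb (SD, n = 3), followed by Atf4 at 72.9 ± 2.7 CPM per kb. Xbp1 stood at 26.3 ± 1.46 CPM per kb. Atf3 (20.5 ± 3.01), Ppp1r15a (18.9 ± 1.69) and Ppp1r15b (18.5 ± 1.26) came next and did not differ among themselves beyond their spread. Ddit3 was at 10.3 ± 0.645, Sesn2 at 4.91 ± 0.943 and Chac1 at 2.66 ± 0.215 CPM per kb. Trib3 was lowest at 0.196 ± 0.0542 CPM per kb, and its 12 libraries held only 5 to 44 counts each, against 1424 to 3807 for Atf3. The study's text speaks of reads in coding regions, while the tables also list non-coding genes, so the length that the counts cover is uncertain. Per kilobase of coding sequence, a choice made after the values were seen, the order was Hspa5 (206 CPM per kb), Atf4 (164), Xbp1 (101), Atf3 (81.2), Ppp1r15b (49.6), Ddit3 (35), Ppp1r15a (28.2), Sesn2 (11.8), Chac1 (6.51) and Trib3 (0.393). The middle of the order thus depends on the length used. Counting error therefore weighs most on Trib3, and next on Chac1, at 118 to 306 counts a library. The lowest Trib3 level, 0.118 CPM, was close to the 0.0693 CPM that 3 counts are worth in that library.

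**Figure D1:**
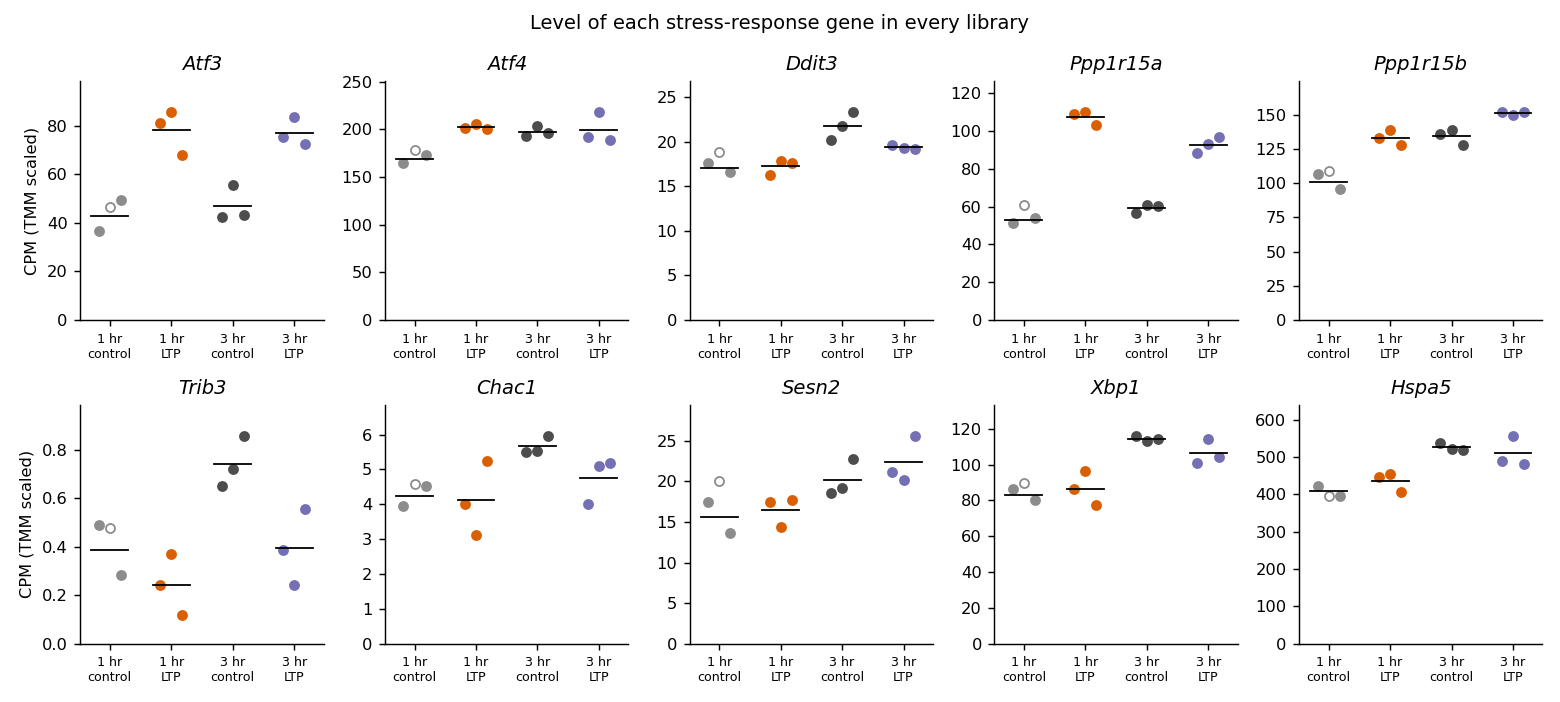
Level of each of the 10 genes in every library (y axis, CPM scaled by TMM, from 0), by group (x axis), with the mean of the fitted libraries as a line. The open point is 1 hr control replicate 2, which was not fitted. Atf3 and Ppp1r15a are higher in every LTP library than in every control library, while Ppp1r15b, Xbp1 and Hspa5 are also higher in 3 hr controls than in 1 hr controls.

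LTP was compared with control at each time point to ask which parts of the stress response moved with it. A call required a fold change above 1.2 together with an adjusted p below 0.1 (edgeR's quasi-likelihood test, Benjamini-Hochberg adjustment over all genes). At 1 hr, 3 of the 10 genes were called, all higher after LTP: Ppp1r15a, Atf3 and Ppp1r15b. Of 17736 genes tested, 0.778% were called higher. At 3 hr, 2 of the 10 were called, Ppp1r15a and Atf3, both higher, against 5.07% of 17508 genes. Because the 10 genes were chosen with earlier results of these data known, their counts beside these shares are a description and no test. Across the 10 genes the median log2 fold change was 0.0968 at 1 hr and -0.0036 at 3 hr, beside -0.0010 and -0.0025 over all genes. In bulk tissue, fewer cells of a type and less RNA per cell cannot be told apart, and the p-values rest on 3 animals at most per group.

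Among the transcription factors, Atf3 (chr1:191170296-191218039, minus strand), a stress-inducible member of the ATF/CREB family, was induced at both times. Its level was 36.8, 46.3 and 49.2 CPM in 1 hr controls 1, 2 and 3, and 81.1, 85.5 and 68.1 CPM in the 1 hr LTP libraries. The groups did not overlap, and the rise was 1.83-fold (log2 fold change 0.87, SE 0.119, adjusted p = 0.00137, edgeR). At 3 hr, controls had 42.4, 55.4 and 43.4 CPM and LTP libraries 75.2, 83.7 and 72.5 CPM, again without overlap. The rise was 1.65-fold (log2 fold change 0.73, SE 0.108, adjusted p = 0.0114, edgeR). Within animals, the log2 ratio of LTP to control was 1.14, 0.88 and 0.47 at 1 hr and 0.83, 0.59 and 0.74 at 3 hr, so all 6 animals moved in the same direction.

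Atf4 (chr15:80255184-80257541, plus strand), the factor whose translation the pathway favours, differed less in mRNA level. It stood at 165, 178 and 173 CPM in 1 hr controls and at 201, 206 and 200 CPM after LTP. The groups did not overlap, and the log2 fold change of 0.27 (SE 0.0646, interval 0.13 to 0.41) did not pass after adjustment (adjusted p = 0.114, edgeR). The call was made by DESeq2 (adjusted p = 0.0142), without the filter on low counts (adjusted p = 0.0408, edgeR) and without 1 hr LTP replicate 3 (log2 fold change 0.28, adjusted p = 0.0639, edgeR). With the animal as a block the adjusted p was 0.0296 (edgeR), but the log2 fold change of 0.25 was below the fold minimum. That fit lacks the control of animal 2, and with it added the blocked adjusted p was 0.514. Over all 16 alternatives the adjusted p ran from 0.0142 to 0.847, the highest without 1 hr control replicate 1. At 3 hr the groups overlapped, with 193, 204 and 196 CPM in controls and 192, 218 and 189 CPM after LTP (log2 fold change 0.03, interval -0.12 to 0.18, adjusted p = 0.857, edgeR). These are mRNA levels, and ATF4 protein was not measured.

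Ddit3 (chr10:127290774-127296288, plus strand), which encodes the factor CHOP, was not called. Its 1 hr controls had 17.6, 18.8 and 16.6 CPM and the 1 hr LTP libraries 16.3, 17.8 and 17.6 CPM, so the groups overlapped (log2 fold change 0.02, interval -0.18 to 0.23). At 3 hr, controls had 20.2, 21.8 and 23.3 CPM and LTP libraries 19.6, 19.3 and 19.2 CPM. Every LTP library was thus below every control, with a log2 fold change of -0.15 (interval -0.33 to 0.02, adjusted p = 0.309, edgeR). A part of its exonic bases, 10.9%, is shared with other annotated genes, among them Gm4189 and Mars on the opposite strand, and whether the counting used strand is not given in the sources used here. Mars had 1291 to 2432 counts a library beside 670 to 1195 for Ddit3, so its values are uncertain to that extent.

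Of the phosphatase subunits, Ppp1r15a had the smallest p of the 10 genes at both times, and Ppp1r15b was called at 1 hr. Ppp1r15a (chr7:45522916-45526268, minus strand) encodes GADD34, the stress-inducible subunit that directs protein phosphatase 1 to eIF2, and Ppp1r15b encodes CReP, the subunit that is present without stress. Ppp1r15a had 51.5, 61.1 and 53.9 CPM in 1 hr controls and 109, 110 and 103 CPM in 1 hr LTP libraries. Every LTP library lay well above every control, a 2.05-fold rise (log2 fold change 1.04, SE 0.0726, adjusted p = 9.45e-07, edgeR), which ranked 15 by p among all genes. At 3 hr its level was 56.4, 61 and 60.1 CPM in controls and 88.5, 93.1 and 97.1 CPM after LTP. The groups stayed apart, with a 1.58-fold rise (log2 fold change 0.66, SE 0.0623, adjusted p = 0.00172, edgeR). The ratios within animals ran from 0.84 to 1.08 on the log2 scale at 1 hr and from 0.61 to 0.69 at 3 hr. The CRE printed above lies within the last 12 bases before the start of this gene, and its part in the rise was not tested.

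Ppp1r15b (chr1:133131143-133139783, plus strand) rose less. It had 107, 109 and 95.6 CPM in 1 hr controls and 133, 139 and 128 CPM after LTP, without overlap. The rise was 1.33-fold (log2 fold change 0.41, SE 0.0755, adjusted p = 0.0178, edgeR). This call was lost without 1 hr control replicate 3 (log2 fold change 0.33, adjusted p = 0.466, edgeR) and without 1 hr LTP replicate 1 (0.41, adjusted p = 0.1). At 3 hr it had 136, 139 and 128 CPM in controls and 152, 150 and 152 CPM after LTP, still without overlap. That difference was 1.14-fold (log2 fold change 0.19, SE 0.0549, adjusted p = 0.0992, edgeR) and so fell below the fold minimum for a call. An antisense gene, Gm26616, covers 11.4% of its exonic bases.

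The balance between the subunits was described within each library, a choice made after the values were seen and given no test. The ratio of Ppp1r15a to Ppp1r15b in CPM per kilobase was 0.92, 1.07 and 1.07 in 1 hr controls and 1.56, 1.5 and 1.54 after LTP. It was 0.792, 0.837 and 0.896 in 3 hr controls and 1.11, 1.18 and 1.22 after LTP. The control and LTP libraries did not overlap at either time, and the mean log2 ratio was higher after LTP by 0.63 at 1 hr, over the fitted libraries, and by 0.47 at 3 hr. Per coding length the ratios were lower, 0.512 to 0.599 against 0.835 to 0.869 at 1 hr and 0.441 to 0.499 against 0.617 to 0.677 at 3 hr, with the same log2 differences, so Ppp1r15a stood below Ppp1r15b in the 3 hr controls under both lengths, and above it in the LTP libraries under the first length only.

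**Figure D2:**
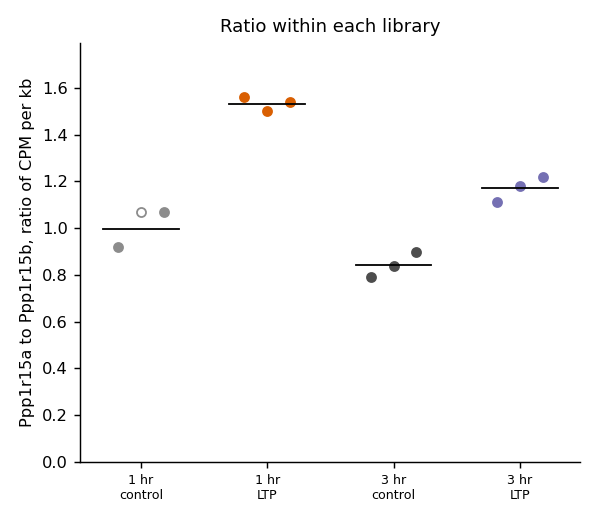
Ratio of Ppp1r15a to Ppp1r15b within each library (y axis, ratio of CPM per kilobase of exon, from 0) by group (x axis), with the mean of the fitted libraries as a line and 1 hr control replicate 2 as an open point. The ratio is 1.5 to 1.56 in 1 hr LTP libraries and 0.792 to 0.896 in 3 hr controls.

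Trib3, Chac1 and Sesn2, further targets of the stress response, were not called with LTP at either time. Trib3 (chr2:152337422-152344032, minus strand), a pseudokinase that restrains ATF4, had 0.491, 0.476 and 0.284 CPM in 1 hr controls and 0.243, 0.369 and 0.118 CPM after LTP. These groups overlapped, with a log2 fold change of -0.66 and a wide interval of -1.85 to 0.52. Leaving out 1 library moved it from -0.23 (1 hr control replicate 1) and -0.32 (1 hr LTP replicate 3) to -1.01 (1 hr control replicate 3) and -1.08 (1 hr LTP replicate 2). At 3 hr it had 0.649, 0.719 and 0.857 CPM in controls and 0.386, 0.242 and 0.554 CPM after LTP. Every LTP library was below every control, and the log2 fold change of -0.92 (SE 0.307, interval -1.62 to -0.23) had an adjusted p of 0.135 (edgeR). With the animal as a block, where LTP and control slices of an animal are paired, it was called lower (log2 fold change -0.92, adjusted p = 0.0951, edgeR). It was also called without 3 hr LTP replicate 3 (log2 fold change -1.24, adjusted p = 0.0697, edgeR).

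Chac1 (chr2:119351229-119354381, plus strand), which degrades glutathione, had 3.95, 4.59 and 4.53 CPM in 1 hr controls and 4.01, 3.11 and 5.24 CPM after LTP, a full overlap (log2 fold change -0.03, interval -0.46 to 0.40). At 3 hr it had 5.5, 5.53 and 5.96 CPM in controls and 4.02, 5.1 and 5.17 CPM after LTP. The groups did not overlap, but the log2 fold change of -0.24 (interval -0.51 to 0.03) did not pass (adjusted p = 0.307, edgeR). It was -0.13 without 3 hr LTP replicate 1. The 1 hr value of Chac1 had no stable sign, being -0.24 without 1 hr LTP replicate 3 and 0.13 without 1 hr LTP replicate 2. Sesn2 (chr4:132492032-132510501, minus strand), a leucine sensor that holds back mTORC1, had 17.5, 20.1 and 13.6 CPM in 1 hr controls and 17.4, 14.4 and 17.7 CPM after LTP. At 3 hr the values were 18.6, 19.2 and 22.8 CPM in controls and 21.2, 20.2 and 25.6 CPM after LTP. Its groups overlapped at both times (log2 fold change 0.10, interval -0.17 to 0.37, and 0.16, interval -0.11 to 0.42, adjusted p = 0.957 and 0.489, edgeR). The 1 hr value had no stable sign, being -0.04 with 1 hr control replicate 2 added, -0.08 without replicate 3 and 0.29 without replicate 1 of those controls, and the 3 hr value was 0.04 without 3 hr LTP replicate 3.

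Neither gene of the ER arm was called with LTP at either time. Xbp1 (chr11:5520659-5525893, plus strand), the factor that IRE1 activates by splicing, had 86.2, 89.7 and 80.3 CPM in 1 hr controls and 86.1, 96.4 and 77.2 CPM after LTP (log2 fold change 0.07, interval -0.13 to 0.26). Its 3 hr values were 116, 113 and 114 CPM in controls and 101, 114 and 104 CPM after LTP (log2 fold change -0.09, interval -0.23 to 0.05). Counts per gene do not separate the spliced from the unspliced form. Hspa5 (chr2:34771970-34777547, plus strand), the chaperone BiP, had 424, 395 and 397 CPM in 1 hr controls and 447, 454 and 406 CPM after LTP (log2 fold change 0.10, interval -0.06 to 0.25). At 3 hr it had 539, 523 and 520 CPM in controls and 491, 557 and 482 CPM after LTP (log2 fold change -0.04, interval -0.19 to 0.12). Both genes overlapped between groups at both times, and the 4 intervals lay between -0.23 and 0.26 on the log2 scale.

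**Figure D3:**
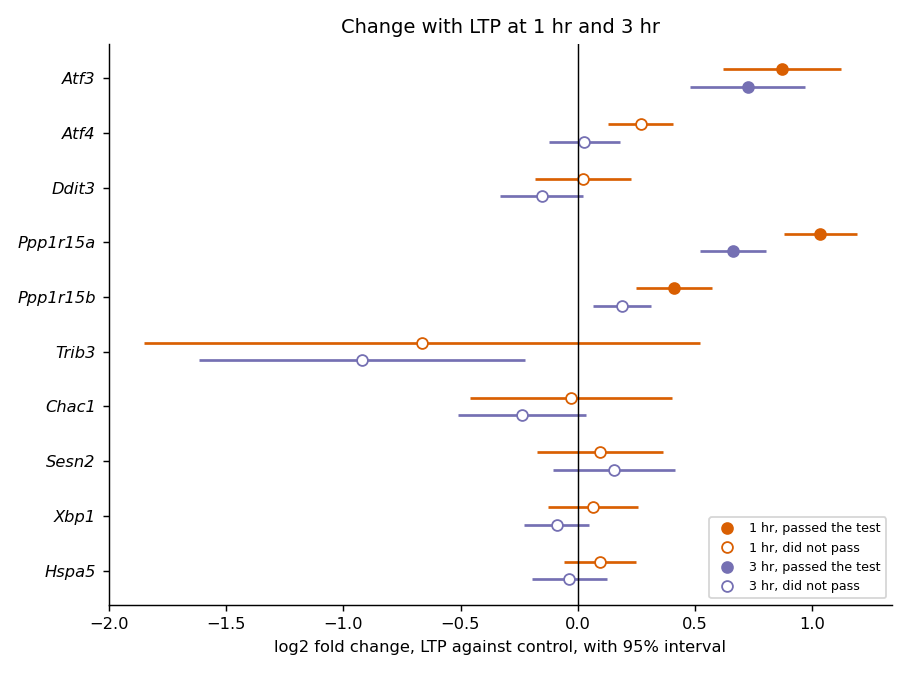
Log2 fold change of LTP against control (x axis) for each of the 10 genes (y axis) at 1 hr and 3 hr, with its 95% interval as a line. Filled points passed the test: Atf3 (0.87 and 0.73) and Ppp1r15a (1.04 and 0.66) at both times, and Ppp1r15b (0.41) at 1 hr.

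Counted by overlap, 4 of the 10 genes had non-overlapping groups among the fitted libraries at 1 hr (Atf3, Atf4, Ppp1r15a and Ppp1r15b, all higher after LTP), where 22.6% of all genes did. At 3 hr there were 6, Atf3, Ppp1r15a and Ppp1r15b higher and Ddit3, Trib3 and Chac1 lower, where 27.0% of all genes did.

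Whether the LTP effect itself differed between 3 hr and 1 hr was tested in a model of the 4 groups. Of the 10 genes, 0 were called (edgeR), where 0.0592% of 18584 genes were, while 3 had an unadjusted p under 0.05: Ppp1r15a, Atf4 and Ppp1r15b. Over all genes, 1225 of the 18584 had an unadjusted p under 0.05 (edgeR). Among the 10 genes DESeq2 called 1 and limma-voom 0. The effect on Ppp1r15a was smaller at 3 hr by 0.37 on the log2 scale (difference -0.37, SE 0.0899, adjusted p = 0.366, edgeR), which DESeq2 called (-0.38, adjusted p = 0.0493). For Atf4 the difference was -0.23 (SE 0.0912, adjusted p = 0.659, edgeR), and for Ppp1r15b it was -0.21 (SE 0.0902, adjusted p = 0.715). Atf3 differed by -0.14, with an interval of -0.53 to 0.26. The median difference of the 10 genes was -0.19 beside 0.0049 over all genes. The sign of a gene's own difference turned under at least 1 alternative for Atf3, Trib3, Chac1 and Sesn2. With the animal as a block it went from -0.24 to 0.18 for Trib3 and from 0.07 to -0.03 for Sesn2.

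Control slices were compared between 3 hr and 1 hr to see how these genes moved with time in vehicle alone. Here the ER genes and Ddit3 were higher at the later time. Called higher at 3 hr were 5 of the 10 genes, Xbp1, Ppp1r15b, Sesn2, Hspa5 and Ddit3, where 16.1% of 18584 genes were called higher, and 0 were called lower. Their median log2 fold change was 0.34, beside -0.02 over all genes, and all 10 values were above 0. All but Atf3 had non-overlapping groups, with only 2 fitted libraries at 1 hr, where 60.7% of all genes did. Time and animal cannot be told apart in this comparison.

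Xbp1 rose 1.35-fold, its mean going from 83.2 ± 4.18 (SD, n = 2) to 115 ± 1.44 (SD, n = 3) CPM, with a log2 fold change of 0.43 (SE 0.0861, adjusted p = 0.00239, edgeR). Hspa5 rose 1.26-fold, from 411 ± 19.3 to 527 ± 9.81 CPM (log2 fold change 0.33, SE 0.0769, adjusted p = 0.00568, edgeR). Ddit3 rose 1.25-fold, from 17.1 ± 0.694 to 21.7 ± 1.55 CPM (log2 fold change 0.32, SE 0.0872, adjusted p = 0.0136, edgeR). Ppp1r15b rose 1.3-fold, from 101 ± 7.86 to 134 ± 5.65 CPM (log2 fold change 0.38, SE 0.0678, adjusted p = 0.00128, edgeR), whereas Ppp1r15a had a log2 fold change of 0.14 (SE 0.0674, adjusted p = 0.14). The ER genes and CReP thus stood higher in 3 hr controls, and GADD34 did not pass.

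Sesn2 rose 1.28-fold, from 15.5 ± 2.82 to 20.2 ± 2.24 CPM (log2 fold change 0.35, SE 0.142, adjusted p = 0.0759, edgeR). This call was lost with 1 hr control replicate 2 added (0.24, adjusted p = 0.206), and on leaving out replicate 3 of the 1 hr controls (0.21, adjusted p = 0.422) or of the 3 hr controls (0.27, adjusted p = 0.208). Trib3 had the greatest fold of the 10 genes, 1.89-fold (log2 fold change 0.91, SE 0.428), and missed the threshold (adjusted p = 0.119, edgeR), as did Chac1 (0.39, SE 0.185, adjusted p = 0.126). The Trib3 value was 1.39 without replicate 1 of the 1 hr controls and 0.60 without replicate 3 of them. Leaving out any of 4 LTP libraries (1 hr replicates 2 and 3, 3 hr replicates 2 and 3), none of which is in a control group, gave calls for both, with adjusted p of 0.0798 to 0.0954 for Trib3 and 0.0564 to 0.0928 for Chac1. Without the filter on low counts both were called as well (adjusted p = 0.0951 and 0.0683, edgeR). Chac1 was also called with scaling by total counts (0.0818), with at least 10 counts required in every library (0.0946) and with 1 hr control replicate 2 added (0.0954). Atf4 had an adjusted p of 0.0422 but a log2 fold change of 0.20, below the fold minimum; without 1 hr control replicate 3 it was called (0.27, adjusted p = 0.0725).

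The same 3 hr control libraries serve in this comparison and in that of LTP at 3 hr, so values of the 2 comparisons are not independent. For Trib3, the 3 hr LTP libraries (0.242 to 0.554 CPM) overlapped with the 1 hr controls (0.284 to 0.491 CPM), and the 3 hr controls (0.649 to 0.857 CPM) stood above both. For Chac1, the 3 hr LTP libraries (4.02 to 5.17 CPM) likewise overlapped with the 1 hr controls (3.95 to 4.59 CPM). For Ddit3, they lay between, at 19.2 to 19.6 CPM.

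Markers of other cell types moved with time in the same controls. Of the 5 microglial markers 4 were called lower at 3 hr, where 16.8% of all genes were, and their sum ran from 185 to 197 CPM in 1 hr controls and from 125 to 142 CPM in 3 hr controls. Of the 4 oligodendrocyte markers 2 were called higher (4230 to 5150 CPM against 5790 to 7120 CPM in sum), of the 5 endothelial and mural markers 3 were lower (95.6 to 103 CPM against 82.4 to 83.8 CPM), and of the 7 neuronal markers 3 were lower (7090 to 7590 CPM against 6410 to 6510 CPM in sum), while the other 4 had log2 fold changes above 0 without a call and the list's median was 0.07. Of the 5 astrocyte markers 1 was called lower (1810 to 1890 CPM against 1730 to 1930 CPM in sum). The other 4 had log2 fold changes above 0 without a call, and that list's median was 0.08. Of the 4 dentate granule cell (153 to 176 CPM against 142 to 172 CPM) and 3 choroid plexus markers (24.3 to 29.2 CPM against 23 to 24.5 CPM) 0 were called by edgeR, DESeq2 or limma-voom. None of these had an unadjusted p under 0.05, where 7821 of 18584 genes did (edgeR). The part of all these cell types in the changes of the 10 genes was not tested. Between LTP and control at 1 hr, 0 markers of these lists were called by edgeR, DESeq2 or limma-voom, while 3 oligodendrocyte markers and 4 endothelial and mural markers had an unadjusted p under 0.05. Over all genes, 1190 of 17736 had an unadjusted p under 0.05 at 1 hr (edgeR). In the 1 hr LTP libraries the oligodendrocyte sum was 4990 to 6020 CPM and the endothelial and mural sum 79.9 to 85.7 CPM, and their part in the LTP differences at 1 hr was not tested. At 3 hr only Calb2 of the dentate list was called by edgeR (log2 fold change -0.62, adjusted p = 0.0312), and DESeq2 also called 1 astrocyte marker.

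The wider pathway was followed in 82 other genes, of which 81 were tested. With LTP, 1 was called at 1 hr and 2 at 3 hr, all higher, where 0.778% and 5.07% of all genes were called higher, so these counts are no result about the pathway as a whole. The 1 hr call and 1 of the 3 hr calls came from the relatives. Trib1, a relative of Trib3, rose 2.36-fold at 1 hr (log2 fold change 1.24, SE 0.0863, adjusted p = 9.45e-07, edgeR), with 49.1 to 50.9 CPM in LTP libraries and 19.8 to 26.6 CPM in controls. At 3 hr it was called again (log2 fold change 0.67, SE 0.169, adjusted p = 0.0689, edgeR), at 37.1 to 61.4 CPM against 27 to 33.4 CPM, and its log2 fold change was 0.43 without 3 hr LTP replicate 3. Ern1, which encodes the sensor IRE1, had 11.5 to 14.5 CPM in 1 hr controls and 12.5 to 15.6 CPM after LTP (log2 fold change 0.19). At 3 hr it was called higher, at 19.2 to 23.6 CPM against 15.3 to 17.5 CPM (log2 fold change 0.39, SE 0.0962, adjusted p = 0.0622, edgeR). Each of these 3 hr calls was lost on leaving out any of the 3 hr controls or 3 hr LTP replicate 1, with log2 fold changes of 0.59 to 0.74 and adjusted p of 0.165 to 0.243 for Trib1, and 0.34 to 0.44 and 0.124 to 0.242 for Ern1.

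Of 31 tested ATF4 targets, genes of amino acid supply together with stress regulators such as Cebpb, Ddit4 and Gdf15, 0 were called with LTP at 1 hr by edgeR (2 with an unadjusted p under 0.05, 0 by DESeq2 and 0 by limma-voom), and their median log2 fold change was 0.0002. At 3 hr 0 were called by edgeR (4 with an unadjusted p under 0.05, 1 by DESeq2 and 0 by limma-voom), with a median of -0.05. Of the 18 genes of the ATF6 arm and ER chaperones, 0 were called at either time by edgeR, DESeq2 or limma-voom (0 with an unadjusted p under 0.05 at 1 hr and 2 at 3 hr), with medians of -0.03 and -0.06. Of the 10 eIF2 kinases and subunits of eIF2 and its exchange factor eIF2B, 0 were called at either time by any of these tools (1 with an unadjusted p under 0.05 at each time). Of the 13 genes of the IRE1 and XBP1 arm, 0 were called at 1 hr by any of these tools, with a median of 0.03. At 3 hr each tool called 1, which was Ern1 with edgeR, and the median was 0.04. In that arm 1 gene at 1 hr and 5 at 3 hr had an unadjusted p under 0.05 (edgeR). Over all genes, 0.778% were called higher at 1 hr and 5.07% at 3 hr. A count of 0, or of 1 at 3 hr, is close to that background in lists of this size. An unadjusted p under 0.05 was found for 1190 of all 17736 genes at 1 hr and 3540 of 17508 at 3 hr (edgeR).

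Between the control groups, 24 of the 81 genes were called, 19 higher and 5 lower at 3 hr, where 32.8% of all genes were called, the share against which each list's count is to be read. The ATF4 targets had 9 of 31 called, all higher, where 16.1% of all genes were called higher, with a median log2 fold change of 0.11. Cebpb, a transcription factor that partners ATF4, rose 2.13-fold (log2 fold change 1.09, SE 0.152, adjusted p = 0.000255, edgeR). Ddit4, an inhibitor of mTORC1, rose 1.54-fold (0.62, SE 0.0923, adjusted p = 0.000371). Gdf15, a secreted stress signal named here after its values were seen, had 0.0711 to 0.372 CPM in 1 hr controls and 0.642 to 1 CPM in 3 hr controls (log2 fold change 2.34, SE 0.478, adjusted p = 0.00256, edgeR). Its size is uncertain, since the lowest 1 hr control, replicate 3, held only 3 counts: the log2 fold change was 3.42 on leaving out 1 hr control replicate 1, 1.75 on leaving out replicate 3 and 1.76 with replicate 2 added. The IRE1 and XBP1 arm had 4 of 13 called higher, up to 0.66 on the log2 scale, with the smallest p for Derl1 (log2 fold change 0.50) and Sec61a1 (0.32), which serve degradation from the ER and import into it, and 1 lower, the co-chaperone Dnajb9 (-0.32). Dnajb9 lost its call with 1 hr control replicate 2 added (-0.20), and on leaving out replicate 1 of the 1 hr controls (-0.23) or replicate 3 of the 3 hr controls (-0.25).

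The ATF6 arm and ER chaperones had 4 of 18 called higher and 2 lower, a share close to that over all genes (32.8% called), with a median of -0.01. Atf6b, a relative of the sensor ATF6, and Sdf2l1, a chaperone partner, rose (log2 fold change 0.58 and 0.52), while the exchange factor Sil1 and the lectin chaperone Calr fell by 0.40 and 0.32 on the log2 scale. Calr fell below the fold minimum with 1 hr control replicate 2 added (-0.26) and on leaving out replicate 1 of the 1 hr controls (-0.23). Of the eIF2 list 1 of 10 was called, Eif2ak2, the kinase activated by double-stranded RNA, which fell by 0.45 on the log2 scale, a call that was lost without 1 hr control replicate 3 (-0.40, adjusted p = 0.103, edgeR). Of the 6 relatives of the 10 genes, Trib1 was called higher (0.47) and Chac2 lower (-0.40). Trib1 lost its call on leaving out replicate 1 of the 1 hr controls or replicate 2 of the 3 hr controls (0.42 in each case), and Chac2 lost it with 1 hr control replicate 2 added (-0.25), and on leaving out replicate 3 of the 1 hr controls (-0.14), replicate 2 of the 3 hr controls (-0.40) or replicate 3 of the 3 hr controls (-0.30). Of the 3 genes of CHOP and ER death 1 was called, Tnfrsf10b (0.60), at 0.749 to 1.04 CPM against 1.26 to 1.6 CPM, a call that was lost on leaving out replicate 1 of the 1 hr controls (0.42), replicate 1 of the 3 hr controls (0.51) or replicate 3 of the 3 hr controls (0.66), with DESeq2 (0.62) and without the filter on low counts (0.62).

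**Figure D4:**
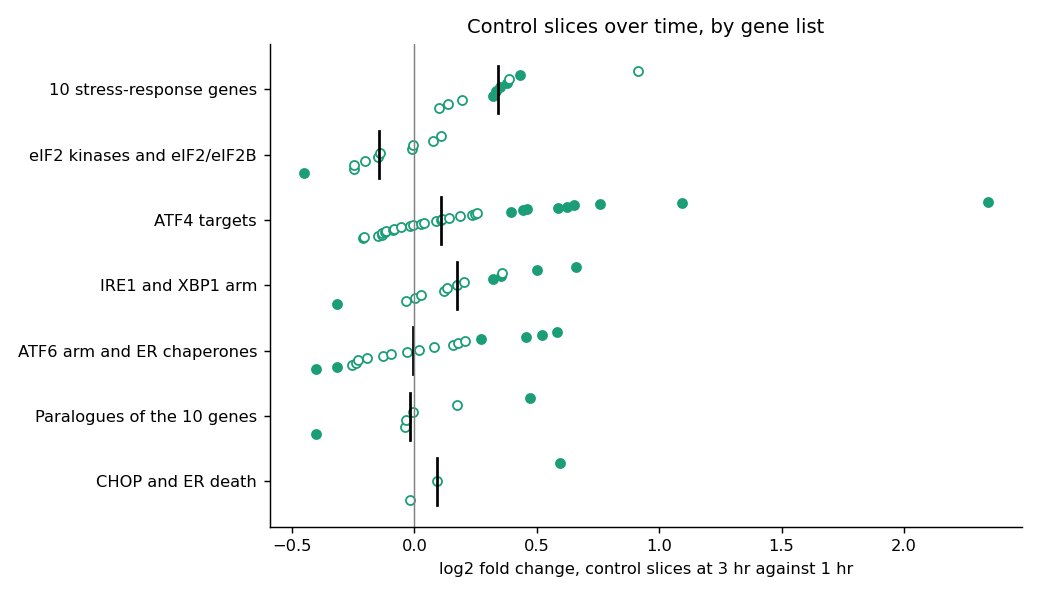
Log2 fold change of control slices at 3 hr against 1 hr (x axis) for the 10 genes and the tested genes of each other list (y axis, 1 point a gene), with filled points for genes that passed the test and a black line at each list's median. All 10 stress-response genes lie above 0, with a median of 0.34, and the point farthest to the right is Gdf15 at 2.34.

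The 10 genes did not vary as 1 group. Over the 12 libraries, which share treatment, time and depth, the Pearson correlation of log2 CPM was 0.940 between Xbp1 and Hspa5 and 0.938 between Atf3 and Ppp1r15a, and it was -0.580 between Trib3 and Ppp1r15a. These are descriptions and carry no test. Among 18583 other genes, those most like Ppp1r15a were Fos (0.984), 1700016P03Rik (0.983) and Arc (0.978), and those most like Atf3 were B230216N24Rik (0.965), Fos (0.953) and Ccnl1 (0.952). Those most like Ppp1r15b were n-R5s45 (0.939), Gm13889 (0.935) and Nptx2 (0.934). Fos, a gene of neuronal activity, was among the 3 most similar genes of both Atf3 and Ppp1r15a, and no other gene of the 10 was among them. Likeness is given only for genes called with LTP, and Fos and Arc also served in the check of the LTP labels. It is therefore not independent of the LTP effect.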

How the data were processed

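The deposited tables, 1 per time point, held raw counts per gene that the authors made from paired-end reads aligned with STAR to GRCm38 and counted with Bioconductor packages; the submitters' processing notes name mm10 and DESeq2. Strand setting and treatment of multiply aligned reads are not given in the sources used here. Of 41091 gene IDs, 40217 matched GENCODE release M21, which gave symbols, positions and exonic lengths. Library totals were 37118382 to 50815001 counts, and 3 counts were worth 0.059 to 0.0808 CPM.

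Tests used edgeR 4.0.16 in R 4.3.3 (filterByExpr, TMM, quasi-likelihood F test, Benjamini-Hochberg adjustment over all genes), on 5 libraries for 1 hr and 6 for 3 hr; the difference between times and the control comparison used 1 model of 11 libraries. SE was derived from the coefficient and its F statistic, and intervals are 95%. The interaction had no fold minimum. Ratios within animals used a pseudocount of 0.1 CPM. The fits of LTP against control at 1 hr and at 3 hr were also run on simulated counts, and the other fits were not. Alternatives were DESeq2 1.42.0, limma-voom (limma 3.58.1), other scalings and filters, the animal as a block, the set-aside library added, and each library left out.

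The labels pair LTP and control libraries by animal within a time point. The correlation of paired deviations from the group means was -0.015, -0.156 and 0.075 for the 1 hr animals and, for those of 3 hr, 0.038, -0.028 and 0.218. The 10 genes and the lists were chosen with earlier results of these data known. Named were all 10 genes, the listed pathway genes called with LTP, for the controls the called genes among the 2 of lowest p per list and direction, and the 3 genes most correlated with each member called with LTP. Promoter windows came from RefSeq on GRCm38.p6.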

Additional observations from a re-analysis of the deposited data

How the results depend on the processing

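The calls of Atf3 and Ppp1r15a held at both times under all 16 alternatives at 1 hr and all 15 at 3 hr, Atf3 between 0.68 and 1.10 and between 0.66 and 0.86, Ppp1r15a between 0.96 and 1.07 and between 0.62 and 0.70 on the log2 scale, and no called value changed its direction. The number of the 10 genes called ran from 2 to 4 at 1 hr, from 2 to 3 at 3 hr and from 4 to 7 between controls. Over all genes, the 140 calls at 1 hr became 347 without a filter and 69 to 344 with a library left out, and the 1155 calls at 3 hr became 228 to 2170 with a library left out. The 11 calls of the difference between times became 80 with DESeq2, 102 without a filter and 1 to 67 with a library left out, and among the 10 genes DESeq2 called 1, Ppp1r15a, where edgeR called 0. The 6102 calls between controls stayed between 4212 and 6422. The cause of these shifts was not tested. With the animal as a replicate block, 206 genes were called at 1 hr in a fit that lacks 1 hr control replicate 2, and 112 with that library added. The block gave 1662 calls at 3 hr and 13 in the difference between times. Of the 10 genes, the paired fits changed the call of Trib3 at 3 hr (-0.92, adjusted p = 0.0951, edgeR) and no other. The block cannot be estimated for the comparison of controls. The filter of at least 10 counts in every library removed Trib3 from the fits that include 1 hr libraries, and at 3 hr it kept it. The ratio of Ppp1r15a to Ppp1r15b, with its alternatives chosen after the data were seen, was higher after LTP by 0.51 to 0.74 at 1 hr and by 0.43 to 0.52 at 3 hr on the log2 scale with a library left out. Depth limits what can be said of Trib3, at 5 to 44 counts a library.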
